A study of Homo sapiens with 2 samples.

Results

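The miRNAs described here are hsa-miR-320a, hsa-miR-320b, hsa-miR-320c, hsa-miR-320d, hsa-miR-320e, hsa-miR-484 and hsa-miR-877-5p (written below without the prefix for human), 7 of the 2549 human miRNAs on the array. They were chosen by name, not by their values, as a group whose precursors are held to reach Dicer without the nuclear enzyme Drosha. Earlier results of these data were known at that choice. HepG2 cells, a human liver cancer line, received either a control adenovirus (Ad-NC) or an adenovirus for an ultraconserved long non-coding RNA, called overexpression below, and RNA was taken after 48 h. The sample label of the second virus names the RNA alone, without a suffix for overexpression or inhibition, so overexpression is taken from the title of the series and the text of the study. The RNA carried the dye Cy3 and was read on Agilent human miRNA arrays, 1 for Ad-NC and 1 for overexpression. With no replicate culture, the differences have no replicate check and no p-values. Every spot SD and ± value below is the spread of single spots within arrays, not the error of their mean, and covers neither culture nor labelling. In RNA taken from bulk cells, fewer cells and less RNA per cell cannot be told apart, and the long non-coding RNA itself is not among the miRNAs measured.

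Most miRNAs are cut from a long primary transcript in the nucleus by the Microprocessor, which holds Drosha and its partner DGCR8, and then by Dicer in the cytoplasm. Some precursors bypass the first cut. The precursors of miR-320a and miR-484 are made directly by RNA polymerase II as short capped hairpins, and miR-877 is a mirtron, an intron of ABCF1 that is shaped into a hairpin after splicing. The study asked whether the long non-coding RNA binds primary transcripts and holds back their maturation, so miRNAs that skip Drosha form a contrast to that step. The bypass is well known for miR-320a, miR-484 and miR-877, whereas miR-320b to miR-320e are grouped with miR-320a by their sequence. No Drosha perturbation is part of these data, so the label itself could not be checked against them.

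RefSeq (GRCh38.p14) gave the mature sequence of 6 of the 7 miRNAs. They are shown 5′ to 3′ with the seed, bases 2 to 8, in capitals, because the seed sets which mRNAs a miRNA pairs with and because the near identity of the miR-320 members bears on what a probe can tell apart.
miR-320b: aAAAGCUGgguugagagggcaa
miR-320c: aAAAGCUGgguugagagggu
miR-320d: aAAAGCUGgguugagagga
miR-320e: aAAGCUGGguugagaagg
miR-484: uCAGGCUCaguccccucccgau
miR-877-5p: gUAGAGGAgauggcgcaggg
miR-320b, miR-320c and miR-320d shared the seed AAAGCUG. Positions counted from 1 at the 5′ end of miR-320b, miR-320c differed from it by C20U and miR-320d by G19A, with the first 19 and 18 bases shared. miR-320e began 1 base later and differed by G17A over the 18 bases compared, so that its seed, AAGCUGG, was shifted by 1 base and was found in no other mature miRNA of the RefSeq table. The seed AAAGCUG was also that of miR-4429, which was on the array but not well above background with either vector. miR-484 shared its seed with miR-3155a and miR-3155b. The probe sequences are not used here, and whether a probe for 1 miR-320 member also bound another was not tested.

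In the genome these miRNAs were scattered. miR-320b came from chr1:116671787-116671808 on the plus strand and chr1:224257049-224257070 on the minus strand, the latter within the span of NVL. miR-320c came from chr18:21683559-21683578 within ABHD3 and from chr18:24321716-24321735 within OSBPL1A, both on the plus strand. miR-320d came from chr13:40727828-40727846 and chrX:140926172-140926190, both on the minus strand and outside other RefSeq genes. miR-320e came from chr19:46709294-46709311 on the minus strand, within PRKD2. miR-484 came from chr16:15643301-15643322 on the plus strand, outside other RefSeq genes, and miR-877-5p from chr6:30584332-30584351 on the plus strand, within ABCF1. In the miR-320 hairpins of 71 to 73 bases the mature miRNA lay in the 3′ arm, starting at base 41 to 44, whereas that of miR-484 lay in the 5′ arm, at bases 8 to 29 of 79.

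miR-877-5p started at the first base of its hairpin. The whole hairpin, at chr6:30584332-30584417, is shown because its ends, in capitals, are the GU and AG with which introns begin and end.
MIR877 hairpin: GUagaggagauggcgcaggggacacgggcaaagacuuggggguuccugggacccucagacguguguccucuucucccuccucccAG
Of the 1562 hairpins in the RefSeq table, 36 (2.30%) began with GU and ended with AG. These letters describe the sequence and are no measure of how the precursor was made in these cells.

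Of the 7 miRNAs, 6 were measured on both arrays and miR-877-5p on neither. A probe was taken as measured when at least 50% of its spots were well above background on both arrays, past a limit set by the scanner software. Signals at this limit were 21.1 for Ad-NC and 17.3 for overexpression. The 7 miRNAs had 16 probes with 140 spots on each array, and 10 of the probes were measured. No spot was saturated. Outlier spots marked by the software, 4 with Ad-NC and 5 with overexpression among these 140, were left out. Over the whole array 229 miRNAs were measured on both arrays. Of the liver miRNAs, miR-192-5p, miR-194-5p and miR-215-5p were well above background with both vectors, whereas miR-122-5p, the miRNA that defines hepatocytes, was not with either. None of the 12 marker miRNAs of blood, muscle, neurons, endothelium and mesenchyme was well above background on either array.

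Relative to the 75th percentile of measured probes, all 6 measured miRNAs had a lower level with overexpression than with Ad-NC, by 1.08- to 1.43-fold, but none was past 1.5-fold. With the 75th percentile over all probes 4 of the 6 had the opposite sign, and the median log2 difference of all measured miRNAs was itself 0.32. Of all measured miRNAs, 3.93% were at least 1.5-fold higher or lower (2.62% lower and 1.31% higher), and 73.8% had a difference below 0. The median log2 difference of the 6, overexpression minus Ad-NC, was -0.38, against -0.17 over the 229 measured miRNAs, whose SD was 0.29. The 5 miR-320 members lay below that median, as 49.8% of measured miRNAs do by construction, and miR-484 lay above it.

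miR-320d, one of the sequence relatives of miR-320a, had the lowest difference of the group. Its brighter probe had 10 spots per array, at 447 ± 22.9 (SD) for Ad-NC and 341 ± 20.1 for overexpression before scaling. The dimmer probe gave 136 ± 14.7 with Ad-NC (10 spots) and 118 ± 6.86 with overexpression (8 spots). The brightest spot of the brighter probe with overexpression, at 379, was dimmer than the dimmest with Ad-NC, at 400.2, so the spots did not overlap even before scaling. After scaling the log2 difference of miR-320d was -0.52 (1.43-fold lower), with a combined spot SD of 0.15, and it was the 16th lowest of the 229.

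miR-320c rests on 1 of its 2 probes. That probe gave 284 ± 26.6 with Ad-NC (10 spots) and 236 ± 19.0 with overexpression (10 spots), and 5 of the latter spots reached the dimmest spot with Ad-NC before scaling. Its second probe, with mean signals of 11.6 and 12.0, stayed below the limit for most spots (0 of 10 and 1 of 10 above it). The log2 difference of miR-320c was -0.49, or 1.41-fold lower, with a combined spot SD of 0.18.

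miR-320b had a brighter probe at 345 ± 30.6 with Ad-NC (10 spots) and 276 ± 16.6 with overexpression (9 spots). Its spots did not overlap before scaling, the dimmest with Ad-NC being 305 and the brightest with overexpression being 302. The dimmer probe, at 113 ± 11.9 and 105 ± 6.20 over 10 spots each, overlapped fully, since all 10 spots with overexpression reached the dimmest with Ad-NC. The log2 difference of miR-320b was -0.43 (1.35-fold lower), with a combined spot SD of 0.16.

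miR-320a, for which a capped precursor is best known, was closer to the median of all miRNAs than miR-320b, miR-320c and miR-320d, but not than miR-320e. Its brighter probe gave 217 ± 13.4 with Ad-NC (9 spots) and 195 ± 18.4 with overexpression (10 spots), and its dimmer probe 85.6 ± 5.28 over 9 spots and 83.9 ± 10.9 over 10 spots. Before scaling the spots of both probes overlapped. The log2 difference was -0.32 (1.25-fold lower), with a combined spot SD of 0.19. This was the 63rd lowest of the 229.

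miR-320e, with the shifted seed, had the widest gap between its probes among the members. The brighter probe gave 288 ± 9.11 with Ad-NC (9 spots) and 239 ± 15.8 with overexpression (10 spots), with no overlap before scaling, and a log2 difference of -0.50 after it. The dimmer probe gave 29.4 ± 6.26 over 10 spots and 33.4 ± 5.56 over 9 spots, close to the limit, and a log2 difference of -0.046. Their mean was -0.27, smaller in size than the combined spot SD of 0.28. The difference of the brighter probe was larger than its combined spot SD of 0.11. These SDs describe single spots, so neither comparison gives the error of a mean.

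miR-484, the other miRNA with a capped precursor, also rests on 1 of 2 probes. It gave 32.7 ± 5.25 with Ad-NC (10 spots) and 35.7 ± 6.62 with overexpression (10 spots), close to the limit, as for the dimmer probe of miR-320e. Before scaling the mean of miR-484 was thus the higher with overexpression, and the spots overlapped. The log2 difference after scaling was -0.11, within the combined spot SD of 0.36. The second probe, with 2 of 9 spots well above background with Ad-NC and 4 of 9 with overexpression, had mean signals of 17.7 and 16.8.

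miR-877-5p, the mirtron of the group, could not be compared. Of its 20 spots on each array, in 4 probes, 0 were well above background with either vector. Its signals ran from -7.00 to 14.6 with Ad-NC, with a median of 0.63, and from -7.35 to 6.76 with overexpression, with a median of 0.92. A level below the limit is not a level of 0, and no fold was computed.

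**Figure D1:**
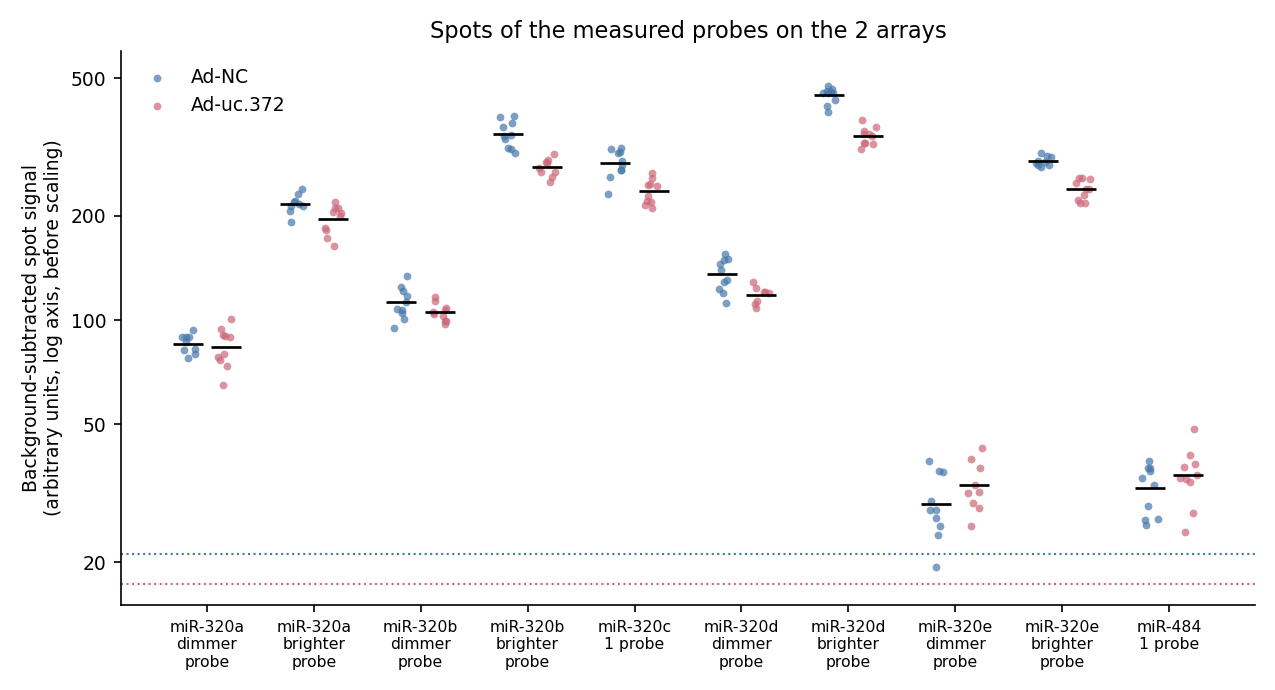
Signal of each spot (points; arbitrary units, log axis, before scaling) of the 10 measured probes with Ad-NC (blue) and overexpression (red, named in the key as its label gives it), with the mean as a black bar and the dimmest signal well above background of each array as a dotted line. The spots of the brighter probes of miR-320b, miR-320d and miR-320e do not overlap between the arrays, whereas those of the other 7 probes do.

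The brighter probe had the more negative difference in each of the 4 miRNAs with both probes measured (miR-320a, miR-320b, miR-320d and miR-320e). The brighter probe lay below the dimmer one by -0.12 on the log2 scale for miR-320a, by -0.20 for miR-320d, by -0.23 for miR-320b and by -0.45 for miR-320e. Brightness was used to name and order the probes and not to compare amounts. The same order was found in 101 of the 153 other miRNAs with several measured probes (66.0%), with a median gap of -0.053. After scaling, the spots of 6 of the 10 measured probes of the group did not overlap, each lower with overexpression. Over all 393 measured probes this share was 21.1%, and 1.53% did not overlap in the other direction. Before scaling it was 3 of the 10, against 4.58% of all measured probes. The 6 are the brighter probe of each of miR-320a, miR-320b, miR-320d and miR-320e, the dimmer probe of miR-320d and the probe of miR-320c. The measured probes of the group that overlapped were its dimmest, and the share over all measured probes was not matched for brightness. The targets of the miR-320 probes are nearly identical in sequence, so these probes do not count as independent.

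**Figure D2:**
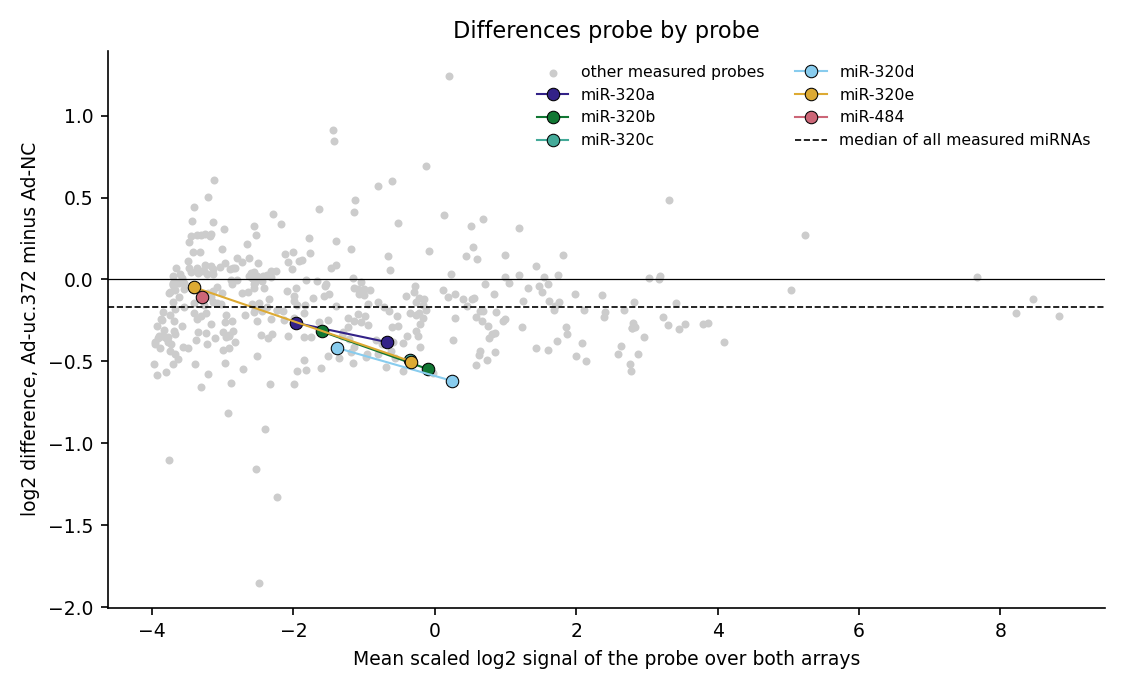
Log2 difference (overexpression minus Ad-NC) against the mean scaled log2 signal of each of the 393 measured probes, with the members of the group in colour and lines joining probes of the same member. In each of the 4 joined pairs of members the brighter probe lies lower, with the widest of these gaps for miR-320e, from -0.046 to -0.50.

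A difference relative to the median of all measured miRNAs does not move when an array is scaled by a constant. On that basis miR-320d was at -0.35, miR-320c at -0.33 and miR-320b at -0.27, each beyond its combined spot SD. miR-320a at -0.16 and miR-320e at -0.11 were within it, as was miR-484 at 0.060. In order from the lowest, neighbours among the 5 miR-320 members differed by less than their spot SDs, and the whole range of these members was 0.24. Taking the 75th percentile over every probe adds a constant, and the signs of miR-320a, miR-320b, miR-320e and miR-484 then turned, to 0.16, 0.051, 0.21 and 0.38, while their places relative to the median stayed as given. The 5 miR-320 members lay below the median of all miRNAs under each of the 17 settings that filter dim probes, at -0.42 to -0.059, and miR-484 under 6 of the 17. These settings are not separate checks. Those that differ only by a constant per array share the same places by construction, as do those that use the total signal of each miRNA, including the deposited log2 values.

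**Figure D3:**
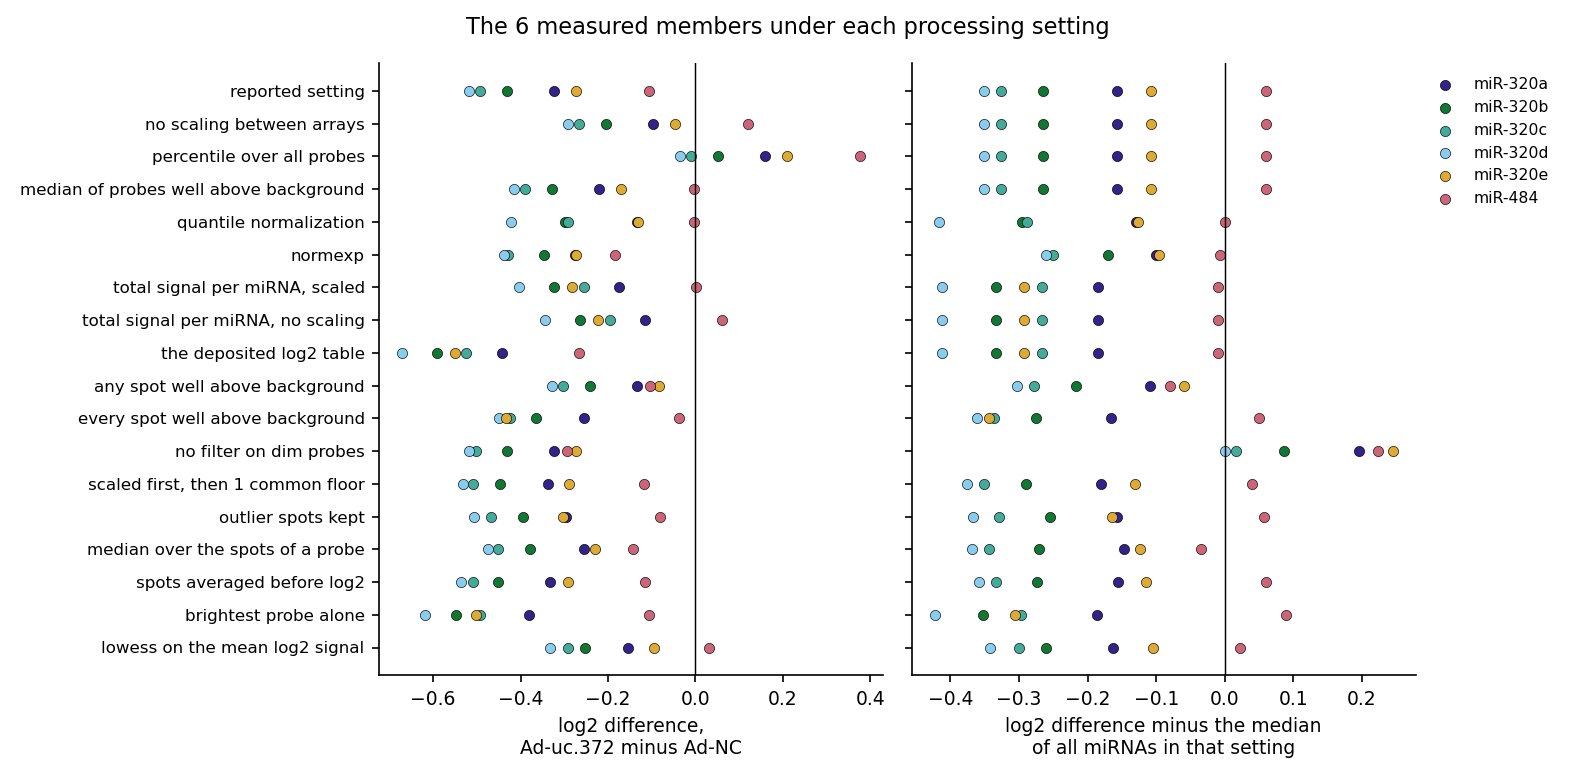
Log2 difference (left) and the same minus the median of all miRNAs (right) of the 6 measured miRNAs under the reported setting and 17 others. On the left the values slide together with the scaling, and on the right the 5 miR-320 members stay below 0 except without the filter on dim probes, where most of the array lies at the detection limit.

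Under the deposited log2 values, 2 of the group passed 1.5-fold in the lower direction, miR-320d at -0.67 and miR-320b at -0.59, where 8.6% of the detected miRNAs did. The median of all detected miRNAs was itself at -0.26 under these values. The same total signals of each miRNA without scaling gave -0.34 for miR-320d and -0.26 for miR-320b, neither past 1.5-fold. With the brightest probe alone, 1 of the group, miR-320d at -0.62, passed it, where 6 of all 229 measured miRNAs (2.62%) did.

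Other miRNAs first catalogued as human mirtrons were compared by count, although miR-1225 and miR-1228 among them have been described as made without splicing and with Drosha, so the list is no set of Drosha-independent miRNAs. Of its 22 arms, 20 were on the array and 3 were measured, none of them past 1.5-fold. Their differences were 0.052 for miR-1225-5p, 0.054 for miR-1229-5p and -0.088 for miR-1228-3p, all above the median of all miRNAs. Their combined spot SDs were 0.14, 0.23 and 0.22.

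Members of the let-7 family and the miR-17-92 polycistron, which are cut by Drosha, were set beside the group. The study does not report binding of the long non-coding RNA to their primary transcripts. Of the let-7 family, tumour suppressor miRNAs that share a seed, 8 of 9 were measured, with a median of -0.35, 7 of them below the median of all miRNAs and 1 past 1.5-fold. They ran from let-7b-5p at -0.82 and let-7e-5p at -0.51 to let-7g-5p at -0.19 and let-7f-5p at 0.090. The value of let-7b-5p rests on 1 measured probe (combined spot SD 0.20). That of let-7f-5p averages probes of opposite sign, at -0.43 and 0.61 (combined spot SD 0.40). Of the miR-17-92 polycistron, which is cut from a single primary transcript and linked to cell growth, 6 of 6 were measured, with a median of -0.15, 3 below the median of all miRNAs and 1 past 1.5-fold. They ran from miR-18a-5p at -0.30 and miR-17-5p at -0.19 to miR-19b-3p at 0.063 and miR-19a-3p at 0.61. The probes of miR-19b-3p were at -0.27 and 0.39 and those of miR-19a-3p at 0.32 and 0.91. Each of these 2 miRNAs had a combined spot SD of 0.61, and miR-18a-5p, at the low end, had one of 0.34. The miR-320 members, with a median of -0.43, thus lay within the range of the let-7 family and below that of the miR-17-92 polycistron for 4 of the 5.

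The miRNAs that the study follows for a block of the cut by Drosha were at -0.44 for miR-195-5p, with a combined spot SD of 0.27, and -1.85 for miR-4668-5p, with one of 0.38. Each rests on 1 measured probe, its second probe having 0 of 10 spots well above background on either array. miR-195-5p gave a signal of 26.7 ± 4.33 with Ad-NC (10 spots) and 22.9 ± 2.55 with overexpression (9 spots) on its measured probe. These signals were close to the limits of 21.1 and 17.3. Before scaling, 8 of the 9 spots with overexpression reached the dimmest spot with Ad-NC. The log2 difference of miR-195-5p lay between those of miR-320c and miR-320b, at ranks 19 and 24 from the lowest against 23 for miR-195-5p. It differed from each by less than its own spot SD. miR-4668-5p, at 103 ± 8.81 and 34.4 ± 8.30 over 10 spots each, lay below all members of the group. With 1 array per vector none of these differences between miRNAs was tested. For the block the study also reports PCR of primary, precursor and mature forms, a deletion mutant and a Drosha binding assay. These experiments were not analysed here. The 3 miRNAs outside the group whose difference was nearest to its median of -0.38 were let-7a-5p at -0.38, miR-130b-3p at -0.38 and miR-15b-5p at -0.37, a likeness in 1 difference between 2 arrays.

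**Figure D4:**
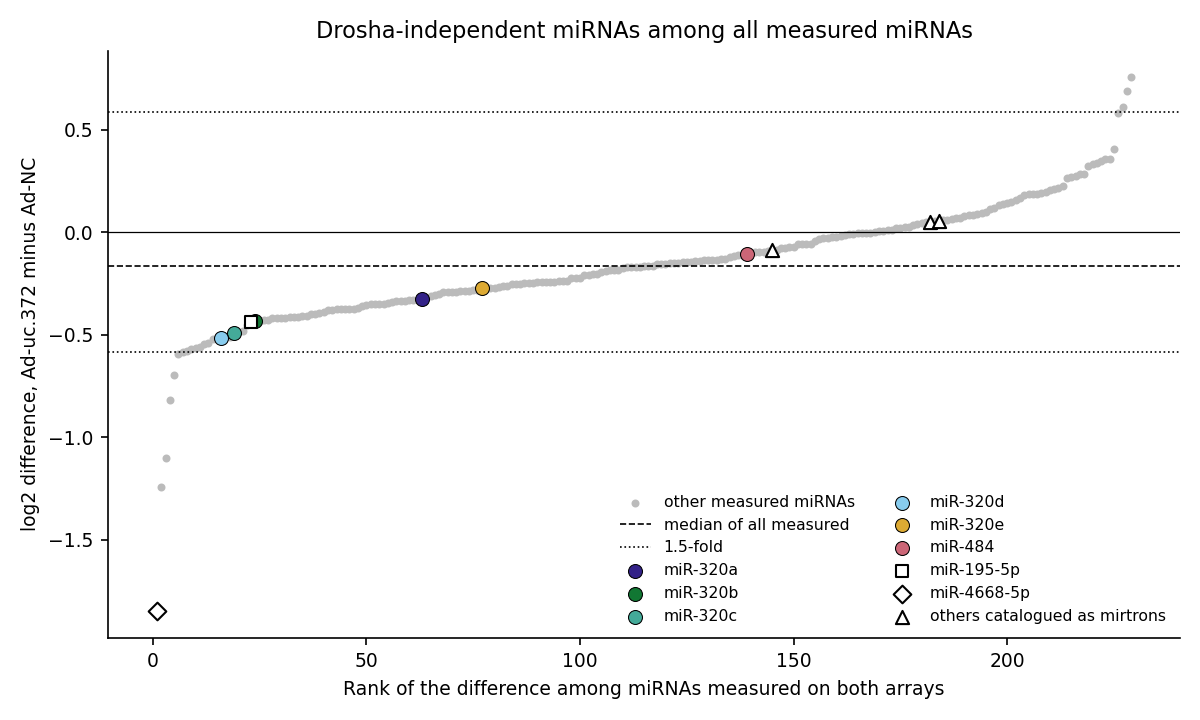
Log2 difference (overexpression minus Ad-NC) of the 229 measured miRNAs in order of rank, with the measured members of the group in colour, others catalogued as mirtrons as triangles, miR-195-5p as a square and miR-4668-5p as a diamond. The miR-320 members lie at ranks 16 to 77, around miR-195-5p at 23, all above the lower 1.5-fold line, while miR-484 and the triangles lie above the median of all miRNAs.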

How the data were processed

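The authors hybridised 1 array per condition and read the images with Agilent Feature Extraction, version 10.10 in the labels and 11.5.1.1 in the file headers. The deposited scanner files give a background-subtracted intensity per spot, a total intensity per miRNA and flags (codes for controls, outliers, detection), without normalization between arrays. A second deposited file holds log2 values that the authors normalized with GeneSpring GX. Set against the scanner files, each equalled the log2 total signal less one offset per array (1.39 for Ad-NC, 1.71 for overexpression), within 0.001 for 2546 and 2542 of 2549 miRNAs. Their scale and direction are thus known, and their column medians, -4.71 and -5.04, are the value given to undetected miRNAs.

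Control and outlier spots were left out, spots under the array's limit were raised to it, log2 signals were averaged per probe, and each array was set relative to the 75th percentile of its measured probes (signals of 304.6 for Ad-NC and 356.5 for overexpression). Probe differences were averaged for each miRNA. For the combined spot SD, the variances of the spots on both arrays were summed, averaged over probes and square-rooted. It is the spread of single spots and is wider than the error of a mean over them, so a difference within it may still exceed that error. The number of arrays limits the precision, and the depth of a spot is its signal over background.

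The members and lists were chosen with earlier results of these data known. Named were all members, miR-195-5p and miR-4668-5p, the 2 highest and 2 lowest of each list, and the 3 nearest miRNAs. miR-4429 was named after its sequence was compared. The scripts were tested on simulated data. Sequences came from RefSeq (GRCh38.p14). Alternatives covered scaling, background correction, summary, filter, floor, outliers, spots, probes and fold. Python 3.11.15 with numpy 2.4.6, pandas 2.3.3, statsmodels 0.14.6 and matplotlib 3.10.9, and, for normexp, limma 3.58.1 in R 4.3.3, were used. The PCR, binding and animal experiments of the study were not analysed here.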

Additional observations from a re-analysis of the deposited data

How the results depend on the processing

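No paired analysis was possible because each virus is represented by 1 array. Scaling by lowess, chosen after seeing the data, gave a median log2 difference of -0.20 for the group and -0.21 relative to all miRNAs. The median log2 difference of the group, -0.38 in the reported setting, moved by more than the median combined spot SD of 0.19 to -0.15 without scaling, to 0.11 with a 75th percentile over every probe and to -0.19 when a single spot well above background sufficed. The first 2 of these add a constant to every miRNA. The looser filter took the 75th percentile over more probes, which moved each miR-320 member by the same amount, and it added the second probe of miR-484. Relative to the median of all miRNAs the group was then at -0.16. The median of the group minus that of all miRNAs, -0.21, moved to 0.086 without the filter, where the median of all miRNAs is that of the detection limits. The number of members above the median of all miRNAs, 1 in the reported setting, was 0 with normexp, with the total signal of each miRNA, scaled or unscaled, with the deposited log2 table, with that looser filter and with the median of spots, and 6 without the filter, under which all 7 members have a value. Members past 1.5-fold, 0 in the reported setting, were 2 with the deposited log2 table and 1 with the brightest probe alone, against 8.6% and 2.62% of all miRNAs under those settings that were at least 1.5-fold lower. The total signal, scaled or unscaled, which the deposited table shifts by an offset per array, gave 0. Of the values of single members, 77 stayed within their combined spot SD and 25 went beyond it; the cause was not tested where no reason is given. Signal over background leaves miR-877-5p without a difference and miR-484 and miR-320c with 1 probe each.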
